A study of Homo sapiens with 8 samples.

Results

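Transcripts of the MHC class I antigen presentation pathway were followed in 2 leukaemia cell lines after knockdown of METTL14. The 9 genes were taken by symbol from the deposited tables and are HLA-B, HLA-C, HLA-E, B2M, TAP1, TAP2, PSMB8, PSMB9 and NLRC5. All 9 of them were found, among 16726 genes listed. Poly(A) RNA of NB4 cells and of MM6 (MonoMac 6) cells was sequenced as 50 bp single-end reads in 8 libraries, 2 in each of 4 groups. The groups were NB4 with shM14, NB4 with shNS, MM6 with shM14 and MM6 with shNS. shM14 (labelled shM14-#2) is a lentiviral pLKO.1 hairpin against METTL14, a subunit of the enzyme that writes N6-methyladenosine on mRNA, and shNS is the non-specific control hairpin. All 4 groups carried a lentivirus and had passed 2 passages of selection in puromycin (0.5 µg/mL) before RNA was taken with TRIzol. Only 1 METTL14 hairpin was used, so loss of METTL14 and other effects of that hairpin cannot be told apart. The labels call both lines acute monocytic leukaemia, although NB4 is generally known as an acute promyelocytic leukaemia line. The labels do not say whether the replicates were separate cultures, so each p-value reflects the spread among these libraries, which may be technical.

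MHC class I molecules show peptides from inside the cell to CD8+ T cells and natural killer cells. Each is a heavy chain, such as HLA-B, HLA-C or HLA-E, paired with the invariant light chain B2M. Peptides are cut by the proteasome, whose immunoproteasome form carries PSMB8 and PSMB9, and are carried into the endoplasmic reticulum by the transporter made of TAP1 and TAP2. NLRC5 is a transactivator that is recruited to class I promoters by a complex of RFX, CREB/ATF and NF-Y proteins, and interferons raise the expression of the whole pathway. Myeloid cells generally express it at a high level.

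The promoters of 5 of these genes are shown because TAP1 and PSMB9 had the lowest values relative to control in NB4 and start back to back, because B2M supplies the shared light chain, and because HLA-B and HLA-C show how alike the heavy chain genes are. Each window runs 5′ to 3′ from 250 bases before to 50 bases after the start given by RefSeq on GRCh38.p14. The windows are chr6:32853655-32853954 on the minus strand for TAP1, chr6:32853942-32854241 on the plus strand for PSMB9 and chr15:44711267-44711566 on the plus strand for B2M. Those of the heavy chains are chr6:31357130-31357429 for HLA-B and chr6:31272043-31272342 for HLA-C, both on the minus strand. Capitals mark matches to the letters of the interferon-stimulated response element (ISRE: GAAA, any 2 bases, GAAA) in B2M and TAP1 and to those of the kB site (GGGA, any base, T, any base, CCC) in HLA-B, read on either strand.
TAP1: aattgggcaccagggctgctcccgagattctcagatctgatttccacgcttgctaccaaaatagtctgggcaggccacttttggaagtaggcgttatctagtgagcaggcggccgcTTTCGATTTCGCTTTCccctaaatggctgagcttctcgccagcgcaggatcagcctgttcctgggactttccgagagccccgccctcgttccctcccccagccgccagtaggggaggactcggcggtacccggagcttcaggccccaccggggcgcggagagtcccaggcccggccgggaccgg
PSMB9: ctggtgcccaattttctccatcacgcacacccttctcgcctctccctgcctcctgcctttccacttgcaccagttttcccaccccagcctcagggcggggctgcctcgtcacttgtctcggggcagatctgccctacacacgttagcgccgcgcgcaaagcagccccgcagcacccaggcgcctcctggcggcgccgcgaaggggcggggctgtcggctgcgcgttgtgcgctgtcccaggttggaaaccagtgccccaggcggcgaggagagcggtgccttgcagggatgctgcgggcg
B2M: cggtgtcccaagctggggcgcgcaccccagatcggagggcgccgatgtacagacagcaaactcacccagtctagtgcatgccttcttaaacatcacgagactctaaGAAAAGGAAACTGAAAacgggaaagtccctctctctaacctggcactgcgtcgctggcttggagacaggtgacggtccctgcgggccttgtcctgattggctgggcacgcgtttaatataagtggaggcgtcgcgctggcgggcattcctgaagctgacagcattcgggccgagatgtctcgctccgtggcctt
HLA-B: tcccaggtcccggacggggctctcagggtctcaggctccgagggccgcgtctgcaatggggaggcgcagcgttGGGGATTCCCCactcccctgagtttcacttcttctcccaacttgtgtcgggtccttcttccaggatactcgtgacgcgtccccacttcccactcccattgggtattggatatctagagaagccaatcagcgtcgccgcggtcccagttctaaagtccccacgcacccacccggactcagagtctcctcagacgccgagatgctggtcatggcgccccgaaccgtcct
HLA-C: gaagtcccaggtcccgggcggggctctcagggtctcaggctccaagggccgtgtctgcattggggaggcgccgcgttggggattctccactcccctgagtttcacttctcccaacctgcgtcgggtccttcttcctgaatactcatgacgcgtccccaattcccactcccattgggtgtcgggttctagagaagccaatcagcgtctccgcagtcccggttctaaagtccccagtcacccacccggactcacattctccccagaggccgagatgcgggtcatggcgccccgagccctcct

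RefSeq promoter windows were matched for 7 of the 9 genes, and TAP1 and PSMB8 have 2 starts each. The first TAP1 start lies 488 bp from the PSMB9 start, on the opposite strand. B2M and the first TAP1 window each held 2 overlapping ISRE matches, and TAP2 and the second PSMB8 window held 1 each. Among all 35116 promoter windows of the same length, 3.57% held the ISRE letters. The HLA-B window held the kB letters at overlapping positions on both strands, and 1.39% of all windows held these letters at least once on either strand. These kB letters were set after the HLA-B window had been read, so that match is shown for orientation only. For every motif only the stated letters were searched. A window without a match may still hold a variant of the element, so a missing match does not show that the element is absent. The interferon-gamma activated site (GAS: TTC, any 3 bases, GAA), held by 7.66% of all windows, was matched in the second windows of TAP1 and PSMB8. The core of the cyclic AMP response element, TGACG, held by 24.6% of all windows, was matched in HLA-B, HLA-C, B2M, TAP2, the first PSMB8 window and PSMB9. The CCAAT box, held by 34.6%, was matched in HLA-B, HLA-C, B2M, the first TAP1 window and PSMB9. The HLA-B and HLA-C windows were identical at 269 bases (89.7%).

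**Figure D1:**
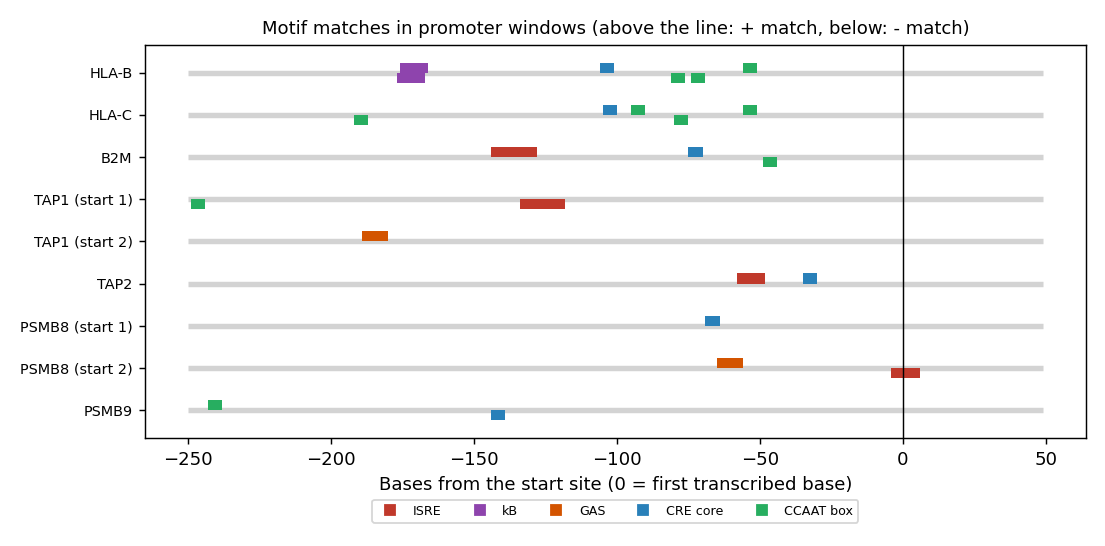
Matches to 5 motifs along the promoter windows of 7 class I pathway genes, with the distance in bases from the start site on the horizontal axis and each window as a grey line. Coloured bars are matches, above the line for the strand of the gene and below it for the other strand. The ISRE bars lie upstream of the start in B2M, TAP1 and TAP2 and across it in the second PSMB8 window.

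The libraries held between 23272126 and 28814911 reads on the listed genes, recovered as whole numbers from the deposited values, and between 16185 and 16403 genes had a read. METTL14 stood at 8.35 and 8.35 RPKM in NB4 shM14 and at 14.1 and 12.5 RPKM in NB4 shNS. In MM6 it stood at 6.54 and 6.55 RPKM with shM14 and at 12.5 and 13.4 RPKM with shNS. METTL14 was therefore below both control libraries in both lines, by -0.61 in NB4 (adjusted p = 0.0024) and by -0.88 in MM6 (adjusted p = 0.088) on the log2(RPKM + 1) scale. Replicates lay farther apart in MM6. Over all genes tested, the SD of the difference between replicates was 0.377 for shM14 and 0.353 for shNS in MM6, against 0.125 for shM14 and 0.152 for shNS in NB4. In MM6 shNS, replicate 2 was higher than replicate 1 for 8 of the 9 class I genes, with a median difference of 0.32. Markers of promyelocytes and monocytes were present in both lines. Of the markers of other cell types, CD3D made up most of the T cell list in NB4. That list summed to 60.1 to 62.3 RPKM with shM14 and 47.1 to 48.9 RPKM with shNS in NB4. EPCAM made up most of the epithelial list in NB4, and KRT8 in MM6. B cell, natural killer cell and erythroid lists summed to at most 2.43 RPKM in any library. Only some markers were listed: 3 of 4 for T cells, 2 of 3 for epithelial cells and 2 of 3 for B cells. For natural killer cells it was 1 of 3 (KLRD1), and for erythroid cells 1 of 3 (HBA1).

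RPKM is reads per kilobase of gene model and per 1e+06 reads, and the gene models behind these values were unusually long in the MHC. For the 7 class I genes on chromosome 6 the implied length was 5.95 to 9.25 times the union of GENCODE exons. Of 101 genes from HLA-F to HLA-DPB1, 97 had a ratio of at least 3, against 87 of 13649 genes elsewhere. B2M, with a ratio of 0.415 on chromosome 15, and NLRC5, with 0.986 on chromosome 16, lie outside this stretch. The cause was not tested, and the stretch and the limit were chosen after the values were seen. RPKM is therefore compared here between libraries for a given gene and not between genes. HLA-B, HLA-C and HLA-E are close paralogs, so short reads may have been shared among them. Reads of PSMB8 and of its antisense neighbour cannot be told apart because the counting strand is not stated. The GENCODE span of PSMB9, on the plus strand, covers that of TAP1 and overlaps that of PSMB8, both on the minus strand. Reads may therefore have been shared among PSMB9, TAP1 and PSMB8 too.

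In NB4, all 9 class I genes fell with shM14 (adjusted p under 0.05 by limma), where 25.2% of the 11531 genes tested fell. The median change was -0.60, against -0.01 over all genes tested. Mean RPKM of PSMB9 fell by 60.2% that of TAP1 fell by 50.9%, and TAP2 (-0.24) and B2M (-0.35) had the smallest changes. In every one of the 9 genes both shM14 libraries lay below both shNS libraries, which held for 40% of genes tested. At or below the median change of the 9 lay 4.45% of genes. In bulk RNA, less transcript per cell and fewer cells with the transcript cannot be told apart. The monocyte list in the same libraries held CD14, LYZ, CSF1R, CD68, FCN1 and ITGAM. Its sum was 121.2 to 121.4 RPKM with shM14 and 48.1 to 49.2 RPKM with shNS. LYZ made up most of the sum with shM14, at 83.4 and 84.6 RPKM against 19.8 and 21.4 RPKM with shNS. CSF1R, CD68 and ITGAM were also higher with shM14. CD14 was under 1 RPKM in every NB4 library. FCN1 overlapped, at 6.41 and 6.31 RPKM with shM14 and at 6.89 and 6.33 RPKM with shNS. The promyelocyte list (MPO, ELANE, PRTN3, AZU1 and CTSG) summed to 2318 to 2361 RPKM with shM14 and 2567 to 2666 RPKM with shNS, and MPO made up most of that sum. Its other members did not move together: PRTN3 stood at 127 and 129 RPKM with shM14 and at 46.1 and 44.1 RPKM with shNS, and CTSG at 6.73 and 6.85 RPKM with shM14 and at 41.9 and 44.9 RPKM with shNS. ELANE followed the replicate number and not the hairpin, at 0.0387 and 6.45 RPKM in replicates 1 and 2 of shM14 and at 0.0462 and 6.83 RPKM in those of shNS. The part of these markers in the class I values was not tested.

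In MM6, none of the 9 class I genes passed the threshold by limma, where 0.0757% of the 11895 genes tested did. The values lay on the same side: all 9 changes were negative, as were 55% of those of genes tested, with a median of -0.42 against -0.03 over all genes tested, and 9.07% of genes lay at or below that median. At an unadjusted p under 0.05, 5 of the 9 were lower (HLA-B, HLA-E, TAP1, PSMB8 and PSMB9), as were 8.93% of genes tested. Both shM14 libraries lay below both shNS libraries for 7 of the 9, which held for 25.8% of genes; HLA-C and NLRC5 overlapped. The monocyte list summed to 8243 to 14430 RPKM in MM6 shM14 and 5894 to 9291 RPKM in MM6 shNS, nearly all of it LYZ, and the promyelocyte list to 4636 to 5021 RPKM in MM6 shM14 and 4368 to 4551 RPKM in MM6 shNS. CD14 stood at 63.2 and 36.3 RPKM with shM14 and at 14.7 and 12.2 RPKM with shNS, CSF1R at 3.08 and 3.76 RPKM with shM14 and at 1.29 and 1.43 RPKM with shNS, and CTSG at 18.9 and 70.7 RPKM with shM14 and at 107 and 239 RPKM with shNS, while FCN1 was listed at 0 in 3 of the 4 libraries. ITGAM was also higher with shM14. CD68 overlapped, at 56.6 and 34.2 RPKM with shM14 and at 66.7 and 42.4 RPKM with shNS. The promyelocyte list did not move together here either. With shM14, MPO (35.1 and 67.0 against 69.6 and 103 RPKM) and AZU1 (1090 and 1359 against 1703 and 1597 RPKM) were lower. ELANE (2275 and 2410 against 1599 and 1709 RPKM) and PRTN3 (1217 and 1114 against 889 and 903 RPKM) were higher. The part of these markers in the MM6 values was not tested. voom on the recovered reads also called 0 of the 9, whereas a model of all 8 libraries with a shared spread called 3, HLA-E, PSMB8 and PSMB9. That model called 1315 of all genes in MM6, against 9 in the main fit. With the replicate number added as a term, 4 of the 9 passed, as did 1405 of all genes. In the model of all 8 libraries with that term, 6 passed, as did 2828 of all genes. The labels do not say that replicate numbers pair libraries. Deviations of same-numbered libraries correlated across genes with r = 0.70 in MM6, against 0.08 in NB4. METTL14 itself did not pass in MM6 in the main limma fit (adjusted p = 0.088) and passed with the replicate term (adjusted p = 0.0089). In the authors' deposited table, 9 of the 9 had an adjusted p under 0.05 and a lower value in NB4, where 21.5% of listed genes did. In MM6 the authors' deposited table had 1 of the 9 there, PSMB9 (log2 fold change -0.92, adjusted p = 0.013), where 1.69% of listed genes did.

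**Figure D2:**
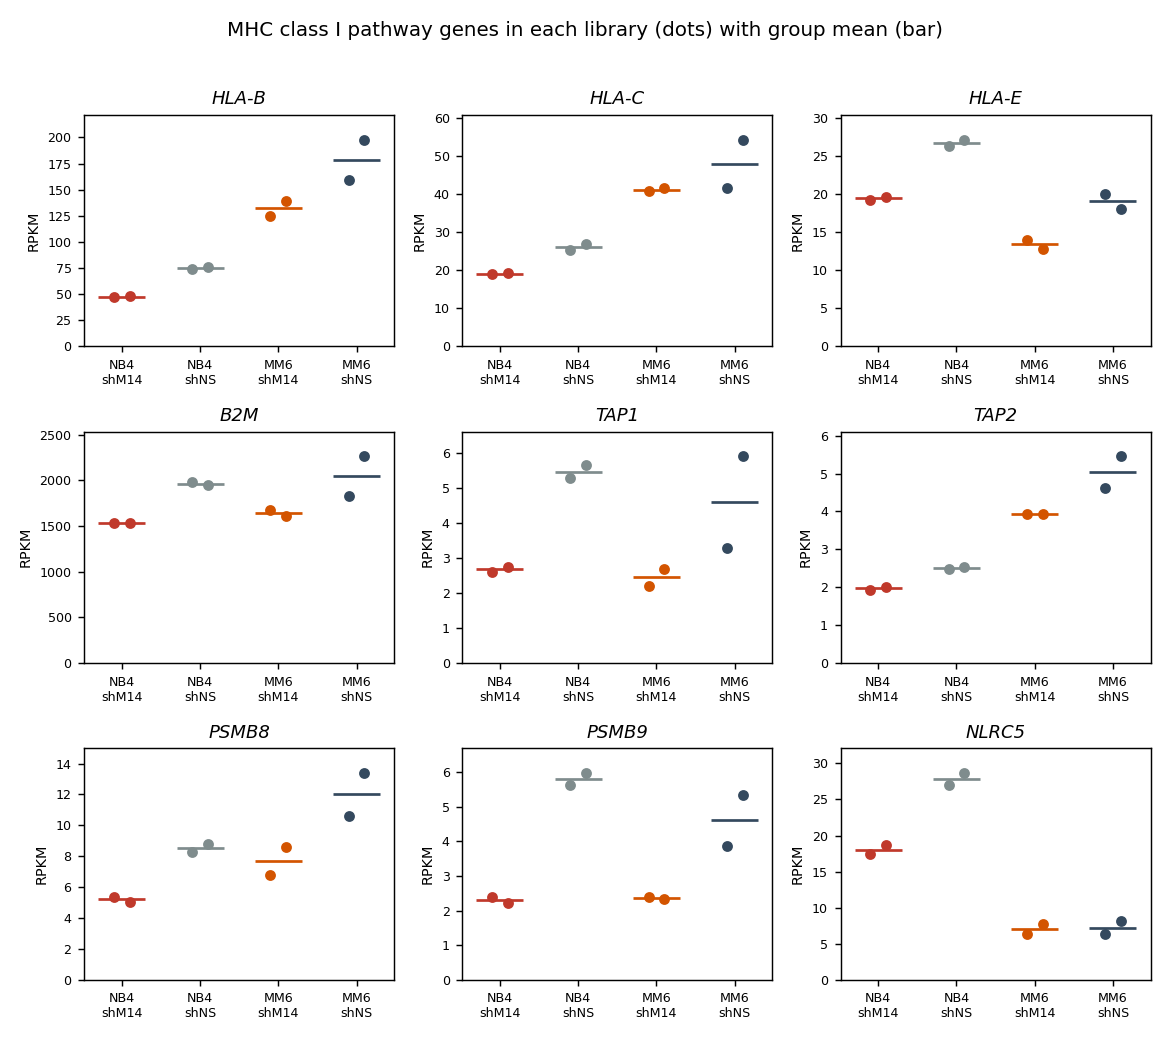
RPKM of the 9 class I pathway genes in each library (dots) with the group mean (bar), for NB4 shM14, NB4 shNS, MM6 shM14 and MM6 shNS. Each panel has its own axis starting at 0. In NB4 all shM14 dots lie below the shNS dots, and in MM6 they do for 7 of the 9 genes.

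Among the heavy chains, HLA-B, a classical molecule that shows peptides to CD8+ T cells, stood at 47.5 and 47.7 RPKM in NB4 shM14 and at 74.4 and 76.1 RPKM in NB4 shNS. In MM6 it stood at 125 and 139 RPKM with shM14 and at 159 and 198 RPKM with shNS. All 4 groups were separate, in the order NB4 shM14, NB4 shNS, MM6 shM14 and MM6 shNS from low to high. The change of HLA-B was -0.65 (SE 0.05, adjusted p = 0.00079) in NB4 and -0.42 (SE 0.17, adjusted p = 0.33) in MM6.

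HLA-C, the classical heavy chain that is also the main ligand of inhibitory killer immunoglobulin-like receptors, stood at 18.9 and 19.2 RPKM in NB4 shM14 and at 25.3 and 26.8 RPKM in NB4 shNS. In MM6 it stood at 40.7 and 41.5 RPKM with shM14 and at 41.4 and 54.2 RPKM with shNS. Its groups were separate in NB4, but in MM6 the lower control library lay between the shM14 libraries. The change was -0.43 (SE 0.05, adjusted p = 0.0029) in NB4 and -0.20 (SE 0.17, adjusted p = 0.68) in MM6.

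HLA-E presents leader peptides of other class I chains to the CD94/NKG2A receptor of natural killer cells. It stood at 19.2 and 19.7 RPKM in NB4 shM14 and at 26.4 and 27.2 RPKM in NB4 shNS. In MM6 it stood at 13.95 and 12.87 RPKM with shM14 and at 20.1 and 18.1 RPKM with shNS. Here MM6 shNS overlapped NB4 shM14, while MM6 shM14 was lowest and NB4 shNS highest. The change was -0.44 (SE 0.05, adjusted p = 0.0022) in NB4 and -0.48 (SE 0.14, adjusted p = 0.21) in MM6.

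The light chain B2M stood at 1534 and 1539 RPKM in NB4 shM14 and at 1982 and 1946 RPKM in NB4 shNS. In MM6 it stood at 1676 and 1606 RPKM with shM14 and at 1825 and 2264 RPKM with shNS. Both shM14 groups lay below both shNS groups, and the control groups of the 2 lines overlapped. The change was -0.35 (SE 0.04, adjusted p = 0.0036) in NB4 and -0.31 (SE 0.16, adjusted p = 0.44) in MM6.

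TAP1 and TAP2 encode the chains of the peptide transporter. TAP1 stood at 2.61 and 2.76 RPKM in NB4 shM14 and at 5.28 and 5.66 RPKM in NB4 shNS. In MM6 TAP1 stood at 2.21 and 2.70 RPKM with shM14 and at 3.28 and 5.91 RPKM with shNS. The shM14 groups of the 2 lines overlapped and lay below all control libraries, and the MM6 controls lay on either side of the NB4 controls. The change of TAP1 was -0.81 (SE 0.05, adjusted p = 0.00072) in NB4 and -0.66 (SE 0.25, adjusted p = 0.32) in MM6. TAP2 stood at 1.93 and 2.00 RPKM in NB4 shM14 and at 2.47 and 2.55 RPKM in NB4 shNS. In MM6 TAP2 stood at 3.92 and 3.93 RPKM with shM14 and at 4.62 and 5.45 RPKM with shNS. The 4 groups were separate, and both MM6 groups lay above both NB4 groups. The change of TAP2 was -0.24 (SE 0.05, adjusted p = 0.012) in NB4 and -0.29 (SE 0.14, adjusted p = 0.42) in MM6. Without NB4 shM14 replicate 1 or replicate 2 the NB4 change of TAP2 did not pass (adjusted p = 0.086 and 0.058).

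The immunoproteasome subunits replace constitutive subunits in cells exposed to interferon and in many blood cells. PSMB8 stood at 5.39 and 5.06 RPKM in NB4 shM14 and at 8.27 and 8.80 RPKM in NB4 shNS. In MM6 PSMB8 stood at 6.79 and 8.61 RPKM with shM14 and at 10.6 and 13.4 RPKM with shNS. The MM6 shM14 libraries lay on either side of the lower NB4 control library, while NB4 shM14 was lowest and MM6 shNS highest. The change of PSMB8 was -0.62 (SE 0.06, adjusted p = 0.0015) in NB4 and -0.58 (SE 0.18, adjusted p = 0.24) in MM6. PSMB9 starts next to TAP1 on the opposite strand. It stood at 2.40 and 2.22 RPKM in NB4 shM14 and at 5.63 and 5.97 RPKM in NB4 shNS. In MM6 PSMB9 stood at 2.38 and 2.35 RPKM with shM14 and at 3.86 and 5.36 RPKM with shNS. With shM14 the lines overlapped near the same level, and with shNS MM6 lay below NB4. The change of PSMB9 was -1.04 (SE 0.06, adjusted p = 0.00047) in NB4 and -0.72 (SE 0.17, adjusted p = 0.17) in MM6.

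NLRC5, the class I transactivator, stood at 17.4 and 18.6 RPKM in NB4 shM14 and at 27.02 and 28.64 RPKM in NB4 shNS. In MM6 it stood at 6.40 and 7.67 RPKM with shM14 and at 6.30 and 8.09 RPKM with shNS. The NB4 groups were separate and above all MM6 libraries, and in MM6 the shM14 libraries lay inside the range of the controls. The change was -0.60 (SE 0.06, adjusted p = 0.0018) in NB4 and -0.02 in MM6 (95% confidence interval -0.46 to 0.41, adjusted p = 0.98).

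A pseudocount of 1 shrinks changes of genes with a low RPKM, and the long gene models lower the RPKM of the chromosome 6 genes. With reads scaled to GENCODE exon length, an alternative chosen after the data were seen, the NB4 change of PSMB9 was -1.29, that of TAP1 -0.995 and that of TAP2 -0.33. The NB4 changes of B2M (-0.35) and NLRC5 (-0.60) were as before to 2 decimals, and 9 of the 9 passed in NB4 and 0 of the 9 in MM6. On that scale, in reads per kilobase and 1e+06 reads, B2M averaged 815 ± 10.4 in NB4 shNS and 849 ± 129 in MM6 shNS (SD, n = 2 each). HLA-B averaged 448 ± 7.10 in NB4 shNS and 1061 ± 164 in MM6 shNS (SD, n = 2 each). TAP2 was lowest in NB4 shNS, at 20.4 ± 0.428, and NLRC5 in MM6 shNS, at 7.09 ± 1.24 (SD, n = 2 each). The place of B2M relative to HLA-B depends on the length used, since its GENCODE exons span 2378 bp against an implied gene model of 987 bp.

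**Figure D3:**
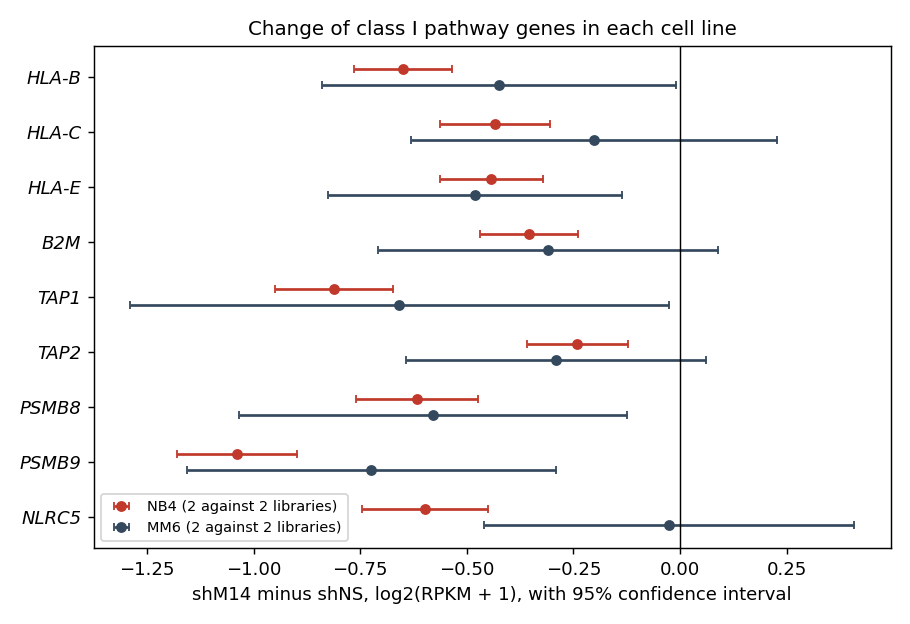
Change of each class I pathway gene with shM14 relative to shNS on the log2(RPKM + 1) scale (points) with 95% confidence intervals (bars), for NB4 (upper of each pair) and MM6 (lower), 2 libraries against 2. All 9 NB4 intervals lie below 0. The MM6 intervals are wider, and that of NLRC5 runs from -0.46 to 0.41.

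With both lines in 1 additive model, 7 of the 9 genes fell with shM14, where 7.1% of the 12804 genes tested did. The changes were -0.88 for PSMB9 (adjusted p = 0.0038), -0.73 for TAP1 (0.017), -0.60 for PSMB8 (0.0095), -0.54 for HLA-B (0.011), -0.46 for HLA-E (0.0064), -0.33 for B2M (0.035) and -0.27 for TAP2 (0.042). HLA-C, at -0.32 (adjusted p = 0.072), and NLRC5, at -0.31 (adjusted p = 0.17), did not pass. Leaving out any NB4 library (shM14 replicate 1 or 2, or shNS replicate 1 or 2) lowered the number passing, among the 9 and among all genes. TAP1, TAP2 and B2M no longer passed in each case. NB4 contributed calls of its own here, so the common change is not a replication in MM6.

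The change in MM6 minus that in NB4 was tested for each gene as an interaction. None of the 9 passed, where 2.92% of genes tested did, and voom on the recovered reads also called 0. That background is itself unstable: of all genes, 374 passed, and 5 to 9 did with any 1 of the 4 NB4 libraries left out, 189 without MM6 shNS replicate 1 and 742 without MM6 shM14 replicate 2. At an unadjusted p under 0.05 there was 1, NLRC5, with a difference of 0.57 (95% confidence interval 0.13 to 1.01, adjusted p = 0.16). The next difference in size was that of PSMB9, at 0.32 (95% confidence interval -0.12 to 0.75). HLA-E differed by -0.04 (95% confidence interval -0.33 to 0.25) and TAP2 by -0.05 (95% confidence interval -0.35 to 0.25). The intervals of TAP1, PSMB8 and B2M also included 0, that of TAP1 running from -0.55 to 0.86.

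Between the control groups, NB4 shNS and MM6 shNS, 6 of the 9 genes differed, where 71.1% of the 12450 genes tested did. Of all genes tested 36.8% were higher and 34.3% lower in NB4. NLRC5 was higher in NB4 by 1.82 (adjusted p = 0.00024) and HLA-E by 0.47 (adjusted p = 0.0079). HLA-B at -1.23 (adjusted p = 0.00079), HLA-C at -0.84 (adjusted p = 0.0048), TAP2 at -0.78 (adjusted p = 0.0018) and PSMB8 at -0.44 (adjusted p = 0.029) were lower in NB4. The line with more NLRC5 transcript thus had less HLA-B, HLA-C, TAP2 and PSMB8 transcript and more HLA-E transcript. Any relation of NLRC5 to these genes was not tested, and the lines differ in most genes. B2M (-0.05), TAP1 (0.25) and PSMB9 (0.29) did not pass. HLA-E and PSMB8 no longer passed without NB4 shNS replicate 1 or replicate 2, and TAP1 (0.60) and PSMB9 (0.49) passed without MM6 shNS replicate 2.

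The balance of immunoproteasome to constitutive catalytic subunits was read within each library as the log2 ratio of RPKM, as a description with no test. The level of the ratio depends on the gene models, so only differences between libraries are read. PSMB8 to PSMB5 was -3.44 and -3.50 in NB4 shM14 and -2.57 and -2.50 in NB4 shNS, and -2.88 and -2.69 in MM6 shM14 and -2.07 and -2.02 in MM6 shNS. PSMB9 to PSMB6 was -4.72 and -4.73 in NB4 shM14 and -3.20 and -3.05 in NB4 shNS, and -4.43 and -4.61 in MM6 shM14 and -3.68 and -3.55 in MM6 shNS. PSMB10 to PSMB7 was -0.97 and -0.98 in NB4 shM14 and -0.50 and -0.15 in NB4 shNS, and -0.60 and -0.30 in MM6 shM14 and 0.20 and 0.14 in MM6 shNS. For each of the 3 pairs the shM14 libraries lay below the shNS libraries in both lines, without overlap. The mean differences were -0.93, -1.60 and -0.65 in NB4 and -0.74, -0.91 and -0.62 in MM6, in the order PSMB8, PSMB9 and PSMB10. Each ratio moves with both of its subunits. On the log2(RPKM + 1) scale the NB4 changes were 0.22 for PSMB5, 0.26 for PSMB6, 0.42 for PSMB7 and -0.21 for PSMB10. Those in MM6 were 0.10 for PSMB5, -0.04 for PSMB6, -0.005 for PSMB7 and -0.61 for PSMB10.

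**Figure D4:**
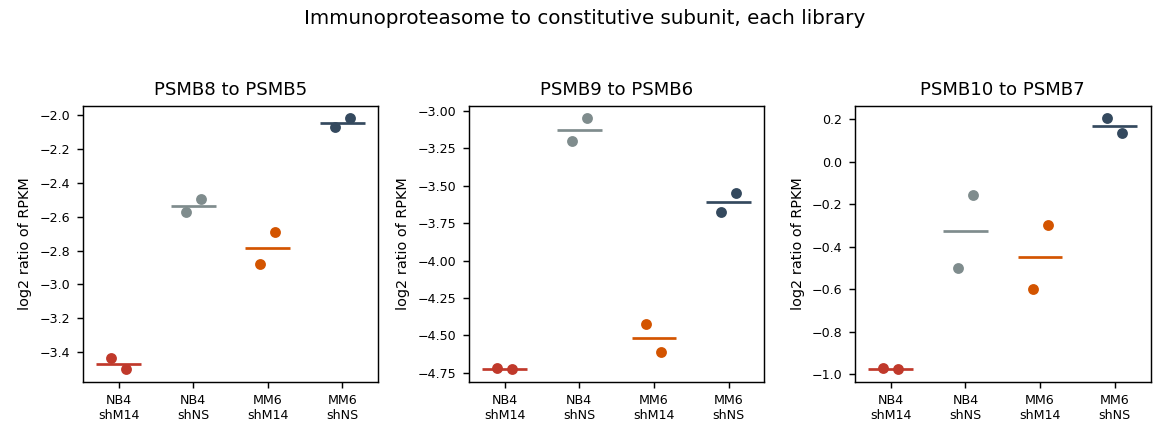
Log2 ratio of RPKM of each immunoproteasome subunit to the constitutive subunit it replaces, per library (dots) with the group mean (bar), in NB4 shM14, NB4 shNS, MM6 shM14 and MM6 shNS. The axes differ between panels and do not start at 0. In all 3 panels the shM14 dots lie below the shNS dots of the same line.

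Other genes of the pathway moved in both directions in NB4, and none of those on the lists passed in MM6 by limma. At an unadjusted p under 0.05 in MM6, where 15% of all genes tested lay, there were 3 of 9 loading genes, 3 of 10 proteasome genes, 2 of 8 class I-like genes, 2 of 13 promoter factors and 2 of 6 class II genes, all of them lower, and 3 of 12 interferon genes, 2 of them lower. Of 9 genes of peptide loading and trimming, 5 rose, 2 fell and 2 did not pass in NB4, where 22.1% of genes tested rose and 25.2% fell, and the median was 0.15. The 7 calls became 4 with all 8 libraries in 1 model. Over all genes tested in NB4, calls went from 5460 to 1769 in that model. PDIA3, a disulphide isomerase of the loading complex, rose by 0.83 (adjusted p = 0.00052), HSP90B1, a chaperone of the endoplasmic reticulum, by 0.63 (adjusted p = 0.00081) and HSPA5, another such chaperone, by 0.50 (adjusted p = 0.0020). ERAP2, an aminopeptidase that trims peptides, fell by 0.38 (adjusted p = 0.0031). In MM6 the changes were 0.11 for PDIA3, -0.04 for HSP90B1, -0.12 for HSPA5 and -0.53 for ERAP2.

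Of 10 other genes of the proteasome, 5 rose, 2 fell and 3 did not pass in NB4, where 22.1% of all genes tested rose and 25.2% fell, and the median was 0.19. The 7 calls dropped to 1 with all 8 libraries in 1 model, while those over all genes went from 5460 to 1769. Leaving out NB4 shM14 replicate 1 or replicate 2 also lowered the calls, in the list and over all genes. The activator subunit PSME3 rose by 0.50 (adjusted p = 0.0018), the assembly factor POMP by 0.36 (adjusted p = 0.0039) and the constitutive subunit PSMB5 by 0.22 (adjusted p = 0.014). PSME1, a subunit of the interferon-inducible activator, fell by 0.24 (adjusted p = 0.014). PSMB5 and PSME1 no longer passed without NB4 shM14 replicate 1 or replicate 2. In MM6 the changes were 0.09 for PSME3, -0.09 for POMP, 0.10 for PSMB5 and -0.53 for PSME1.

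Of 12 other class I and class I-like genes, 3 were expressed highly enough in NB4 to be tested. Of these 2 fell and 1 rose, where 25.2% of all genes tested fell and 22.1% rose. FCGRT, the neonatal Fc receptor, fell by 0.41 (adjusted p = 0.0027) and MR1, which presents vitamin B metabolites, fell by 0.31 (adjusted p = 0.0050). MICB, a stress-induced ligand of NKG2D, rose by 0.27 (adjusted p = 0.0093), and did not pass without NB4 shM14 replicate 1. In MM6 8 were tested and none passed; the changes were 0.18 for FCGRT, -0.12 for MR1 and 0.27 for MICB. The genes under the filter in NB4 could not be called, so the 3 do not stand for the list.

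Of 13 factors that act at class I promoters, 5 rose, 2 fell and 6 did not pass in NB4, where 22.1% of all genes tested rose and 25.2% fell, and the median was 0.10. The 7 calls dropped to 1 with all 8 libraries in 1 model, where those over all genes dropped from 5460 to 1769. Leaving out NB4 shM14 replicate 1 or replicate 2 lowered the calls too, here and over all genes. NFKB1, a subunit of NF-kB, rose by 0.59 (adjusted p = 0.0010) and NFYB, a subunit of the CCAAT-binding NF-Y, by 0.43 (adjusted p = 0.0066). IRF8, a myeloid interferon regulatory factor, rose by 0.80 (adjusted p = 0.0019), whereas IRF1, an activator at ISRE sites, fell by 0.55 (adjusted p = 0.0028). In MM6 the changes were 0.45 for NFKB1, 0.16 for NFYB, -0.56 for IRF8 and -0.94 for IRF1. They rest heavily on single libraries: leaving out each MM6 library in turn gave -1.50 to -0.38 for IRF1, -0.93 to -0.19 for IRF8 and 0.22 to 0.67 for NFKB1.

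Of 12 interferon receptor and signalling genes, 4 rose, 5 fell and 3 did not pass in NB4, where 22.1% of all genes tested rose and 25.2% fell, and the median was -0.01. The 9 calls became 5 with all 8 libraries in 1 model, where those over all genes went from 5460 to 1769. Leaving out NB4 shM14 replicate 1 also lowered the calls, in the list and over all genes. STAT2, which carries the signal of type I interferon receptors, stood at 23.5 and 24.7 RPKM in NB4 shM14 and at 51.6 and 51.6 RPKM in NB4 shNS. STAT2 fell by 1.06 (adjusted p = 0.00038) and IRF7, a factor of the interferon response, by 0.92 (adjusted p = 0.00088), while IFNGR2, a chain of the interferon-gamma receptor, rose by 0.50 (adjusted p = 0.0017). In MM6 STAT2 stood at 44.4 and 49.6 RPKM with shM14 and at 41.1 and 58.6 RPKM with shNS, so its groups overlapped there. The MM6 changes were -0.06 for STAT2, -1.06 for IRF7 and 0.91 for IFNGR2. In the model of both lines IRF7 (-0.99, adjusted p = 0.0097) was lower and IFNGR2 (0.70, adjusted p = 0.0088) was higher, where 4.8% of genes tested were higher.

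Of 8 class II genes, the neighbouring family whose products present peptides from outside the cell, 1 was tested in NB4. CD74, the invariant chain, stood at 3.51 and 2.49 RPKM in NB4 shM14 and at 5.06 and 4.91 RPKM in NB4 shNS, and fell by 0.59 (adjusted p = 0.015), a call lost without NB4 shNS replicate 1 or replicate 2. In MM6 6 class II genes were tested and none passed, and CD74 was at 328 and 304 RPKM with shM14 and at 345 and 286 RPKM with shNS.

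**Figure D5:**
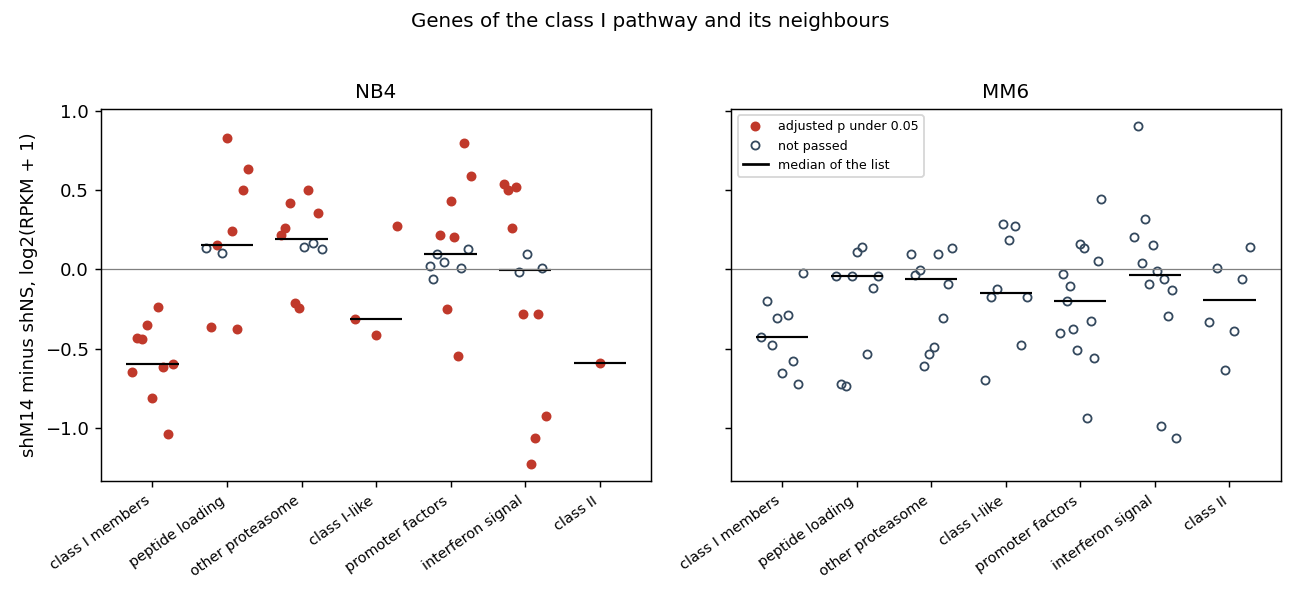
Change with shM14 relative to shNS on the log2(RPKM + 1) scale for the 9 class I genes and 6 lists of related genes, in NB4 (left) and MM6 (right). Filled points passed an adjusted p of 0.05, open points did not, and bars are medians. In NB4 the class I genes lie below 0 (median -0.60), while the loading and proteasome lists have points on both sides.

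The genes whose pattern over the 8 libraries lay closest to the median pattern of the 9 were SHISA5, SP100, AGRN, TRIM56 and VDR, by the root mean square distance of log2(RPKM + 1) centred within each line, among 10647 genes. The distances were 0.041 for SHISA5, 0.049 for SP100, 0.053 for AGRN, 0.056 for TRIM56 and 0.057 for VDR. For comparison, HLA-B itself lay at 0.056 and PSMB9 at 0.220. SP100, a protein of nuclear bodies, stood at 16.3 and 16.3 RPKM in NB4 shM14 and at 26.1 and 24.9 RPKM in NB4 shNS, and at 9.92 and 9.65 RPKM in MM6 shM14 and 11.7 and 14.2 RPKM in MM6 shNS. The measure compares libraries that share line and hairpin, so it is a description with no test.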

How the data were processed

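Poly(A) RNA was sequenced in 8 libraries, 2 per group, and 2 tables were deposited, 1 per cell line. The authors deposited RPKM per gene and library (reads per kilobase of gene model and per 1e+06 reads on listed genes); the headers state no unit, and this one was inferred from the numbers. The deposited signal columns are size-factor-scaled read means of each group. Per the file headers, a fold (ratio of shM14 over shNS) and its log2 follow. The deposited p-value columns hold a p and its adjustment over all rows. Not given in the sources used here are aligner, counter, counting strand and genome build.

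RPKM and group means together gave whole reads for 100% of values within a tolerance of 0.01, and these reads gave depth and implied gene lengths. Lengths were compared with GENCODE 29 exons. A gene was kept where 2 or more of the fitted libraries reached an RPKM of 1. In R 4.3.3, limma 3.58.1 fitted log2(RPKM + 1) over the whole table, with empirical Bayes moderation and Benjamini-Hochberg adjustment over all genes tested at 0.05. Changes are shM14 minus shNS on that scale, which understates the change of low genes. NB4 and MM6 were each fitted alone, with 2 residual degrees of freedom. The change common to both lines, the difference between lines and the difference between controls had their own fits. The test was tried on simulated data, where its share of false calls lay above the nominal rate, so adjusted p-values close to the threshold are to be read with caution.

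The 9 genes and the related lists were chosen with earlier results of these data known, and so were the promoters shown and the motifs. The genes named from each list are up to 4 with the smallest p in NB4; a gene that met this rule is not reported here. Alternatives were a pseudocount of 0.1, no filter, an RPKM minimum of 5, median-of-ratios scaling, a variance trend, voom on recovered reads, the replicate block, all 8 libraries in 1 model with and without that block, and leaving out each library. Scaling to GENCODE exon length was added after the data were seen. Python 3.11.15 with pandas 2.3.3 and matplotlib 3.10.9 made summaries and figures.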

Additional observations from a re-analysis of the deposited data

Results flagged for a closer look

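A pair of genes of the related lists differed between lines in their change by the test of the interaction, and a further one moved in opposite directions. The pair were 1 of 9 loading genes and 1 of 8 class I-like genes tested, where 2.92% of all genes tested passed. None of 10 proteasome genes, 13 promoter factors, 12 interferon genes or 6 class II genes passed. How many of all genes passed depended strongly on single NB4 libraries, so these calls are to be read with caution. PDIA3, of the peptide loading complex, stood at 140 and 137 RPKM in NB4 shM14 and at 78.8 and 76.7 RPKM in NB4 shNS, and at 133 and 141 RPKM in MM6 shM14 and 121 and 132 RPKM in MM6 shNS. Its change in MM6 minus that in NB4 was -0.72 (adjusted p = 0.031). FCGRT stood at 6.76 and 6.74 RPKM in NB4 shM14 and at 9.14 and 9.53 RPKM in NB4 shNS, and at 94.5 and 85.7 RPKM in MM6 shM14 and 78.9 and 79.2 RPKM in MM6 shNS. Its difference was 0.60 (adjusted p = 0.047), close to the threshold. IRF8 stood at 15.8 and 15.2 RPKM in NB4 shM14 and at 9.18 and 7.81 RPKM in NB4 shNS, and at 120 and 201 RPKM in MM6 shM14 and 203 and 258 RPKM in MM6 shNS. Every NB4 shM14 library was above the controls and every MM6 shM14 library below them, and the difference of -1.36 did not pass the test (adjusted p = 0.089).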

How the results depend on the processing

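Of the 9 genes, those passing in NB4 numbered 9 under a pseudocount of 0.1, no filter, median-of-ratios scaling, a variance trend, voom, the replicate block and GENCODE lengths, 8 with an RPKM minimum of 5 (which drops TAP2), and 6 or 7 with all 8 libraries in 1 model without or with the replicate block; leaving out each library gave 8 to 9. Of all NB4 genes tested, 5460 passed in the main fit, 1769 in the model of all 8 libraries and 3285 with the block added. The model of all 8 libraries lost HLA-C, B2M and TAP2 in NB4, and of the related genes IRF1, IRF8, MICB, NFYB, POMP, PSMB5 and PSME1. It gained IRF7, IFNGR2, ERAP2, PSME1 and METTL14 in MM6, where it called 1315 of all genes. In MM6 the count was 0 and became 3 with all 8 libraries in 1 model, 4 with the replicate block (HLA-E, TAP1, PSMB8 and PSMB9; 1405 of all genes then passed) and 6 with all 8 libraries in 1 model with the replicate block (2828 of all genes); leaving out each library gave 0. The replicate block also called METTL14 (adjusted p = 0.0089), IRF1, IRF8, IRF7, IFNGR2, ERAP2 and PSME1 in MM6. The labels do not say that replicate numbers pair libraries; deviations of same-numbered libraries correlated across genes with r = 0.08 in NB4 and 0.70 in MM6, and with 2 pairs a line the numbers are not taken to pair the libraries. For both lines together the count was 7, and 5 with the replicate block; leaving out each library gave 4 to 8. For the difference between lines it was 0, and 1 with the replicate block (NLRC5, adjusted p = 0.030); leaving out each library gave 0. Between control groups leaving out each library gave 4 to 8. The causes were not tested.

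No gene of the 9 changed direction in NB4 or in the model of both lines under any alternative run. Leaving out each library moved MM6 changes by over 1.5 times for TAP1 (-1.004 to -0.31), HLA-C (-0.39 to -0.01), B2M (-0.46 to -0.15), HLA-B (-0.58 to -0.27) and TAP2 (-0.39 to -0.19). Of the related genes it did so for IRF7 (-1.48 to -0.65), HSPA5 (-0.19 to -0.044), PDIA3 (0.047 to 0.17), MICB (0.15 to 0.39) and FCGRT (0.11 to 0.25). The same held for IRF1, IRF8 and NFKB1, whose ranges are given above. In MM6 NLRC5 was at 0.013 under median-of-ratios scaling. When each library was left out in turn, these MM6 changes took both signs: NLRC5 (-0.18 to 0.13), HSP90B1 (-0.17 to 0.088), PSME3 (-0.042 to 0.23), POMP (-0.27 to 0.083), PSMB5 (-0.040 to 0.23), NFYB (-0.032 to 0.36), STAT2 (-0.32 to 0.19) and CD74 (-0.13 to 0.14). So did these differences between lines: HLA-E (-0.11 to 0.032), B2M (-0.11 to 0.20), TAP1 (-0.19 to 0.50), TAP2 (-0.15 to 0.050) and PSMB8 (-0.12 to 0.19); and, between controls, B2M (-0.21 to 0.11) and TAP1 (-0.095 to 0.60). With 2 libraries a group and the wider MM6 spread, a missed threshold in MM6 does not show that a gene did not change.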
